A study of Mus musculus with 15 samples.

Results

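The genes described here are p53 and 9 of its targets outside the BCL2 family: Trp53, Cdkn1a, Mdm2, Ccng1, Phlda3, Zmat3, Sesn2, Eda2r, Trp53inp1 and Btg2. Each was taken as the array row that carries its symbol alone, and the row of highest mean where there were several. By this rule 9 of the 10 had a row, among 22180 genes in all. Trp53 itself was not analysed here.

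The 15 arrays, 1 per library, hold RNA of cerebella from newborn C57BL/6 mice in 3 groups of 5. The DKO (double knockout) mice lack, in granule neuron progenitors, both forms of the kinase Gsk-3, the alpha and the beta isoform. The Math1-Cre control is written Gska+-, GskBff with M1Cre and lacks only Gsk-3 beta in those cells. The no-Cre control is written Gska+-, GskBff without Cre, with Gsk-3 described as intact; its replicate 5 has no GskB genotype in the description. The alleles of the DKO mice are not written out, both controls share the Gska+- genotype, and the labels do not say whether that allele is a germline null. The Math1 (Atoh1) promoter drives Cre in the Math1 lineage, which includes granule neurons, so cells outside that lineage are not its target. Age is postnatal day 1 in one field and day 2 in the growth protocol. The design text adds a density gradient that enriches progenitors, and each library is whole cerebella of 1 replicate.

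p53 is a transcription factor that is held low by the ubiquitin ligase Mdm2 and accumulates after DNA damage and other stresses. Its targets stop the cell cycle, repair damage, restrain growth signalling or start cell death, and Mdm2 is among them, which closes a feedback loop. Granule neuron progenitors divide rapidly after birth and are known to be sensitive to p53-dependent death. Cdkn1a, which encodes the inhibitor p21 of cyclin-dependent kinases, is the classical arrest gene of this set, but factors other than p53 also act on its promoter. The question asked of these data was whether the measured targets moved as a set or Cdkn1a moved without them.

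The row annotated to Gsk3a, and also to 9130221H12Rik, checks the labels. It read 9.47, 8.22, 9.37, 7.89 and 8.27 in DKO libraries 1 to 5. In the Math1-Cre libraries it read 8.25, 8.03, 9.48, 9.50 and 9.51, and in the no-Cre libraries 9.42, 9.52, 9.59, 9.42 and 9.57 (log2 expression, as all levels here). A value of 9.0 splits the libraries into 5 with a low row (DKO 2, 4 and 5 and Math1-Cre 1 and 2) and 10 with a high row, and the values nearest to it are 8.27 below and 9.37 above. The row therefore goes against the label in 4 libraries, DKO 1, DKO 3, Math1-Cre 1 and Math1-Cre 2. Group names stand for the labels, and comparisons are given over all 15 libraries and over the 11 left without those 4 (3 DKO, 3 Math1-Cre, 5 no-Cre). Gsk3b averaged 10.78 in DKO, 10.78 in Math1-Cre and 10.77 in no-Cre libraries, so its row, whose probes were not mapped to the deleted part, checks nothing about the labels.

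Of the arrays, DKO 3, DKO 4, DKO 5 and no-Cre 4 had a narrower spread of values than the rest (interquartile range 3.43 to 3.56, against 3.73 to 3.85). The 4 progenitor markers Atoh1, Barhl1, Zic1 and Pax6 were measured in every library, with a summed linear level of 3615 to 4304 in DKO, 3713 to 4111 in Math1-Cre and 3776 to 4681 in no-Cre libraries. Purkinje cell markers (3 of 4 measured) summed to 4344 to 4923 in DKO, 4363 to 5828 in Math1-Cre and 4459 to 5752 in no-Cre libraries, so the preparations hold other cerebellar cells. In such bulk RNA, fewer cells of a type and less RNA per cell cannot be told apart.

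Sequence around the start of transcription was in the RefSeq promoter table (GRCm38.p6, 250 bases before to 50 after the start) for 7 of the 9 measured genes, in 8 windows. The windows shown are those of the arrest gene Cdkn1a, at both of its starts, and of the feedback genes Mdm2 and Ccng1, which are the 3 genes with a match to the p53 half-site. Capitals mark the half-site, a 10-base motif searched on both strands.
Cdkn1a, first start: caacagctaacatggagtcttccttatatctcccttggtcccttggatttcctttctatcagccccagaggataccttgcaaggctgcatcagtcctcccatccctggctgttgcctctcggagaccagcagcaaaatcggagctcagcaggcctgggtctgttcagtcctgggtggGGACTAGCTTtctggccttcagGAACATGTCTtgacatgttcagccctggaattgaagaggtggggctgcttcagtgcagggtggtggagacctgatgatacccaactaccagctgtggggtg
Cdkn1a, second start: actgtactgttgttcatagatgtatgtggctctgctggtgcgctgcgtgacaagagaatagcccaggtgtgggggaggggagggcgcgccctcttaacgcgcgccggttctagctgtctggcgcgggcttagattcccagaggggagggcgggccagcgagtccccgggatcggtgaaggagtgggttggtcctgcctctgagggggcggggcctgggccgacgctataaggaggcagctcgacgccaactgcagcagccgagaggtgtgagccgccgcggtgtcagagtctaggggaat
Mdm2: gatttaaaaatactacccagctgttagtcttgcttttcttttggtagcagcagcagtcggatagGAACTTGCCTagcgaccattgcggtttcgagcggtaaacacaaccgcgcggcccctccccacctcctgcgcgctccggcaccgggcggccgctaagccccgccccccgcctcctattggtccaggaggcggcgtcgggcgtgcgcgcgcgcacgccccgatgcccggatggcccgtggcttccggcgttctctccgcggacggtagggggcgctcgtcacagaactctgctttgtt
Ccng1: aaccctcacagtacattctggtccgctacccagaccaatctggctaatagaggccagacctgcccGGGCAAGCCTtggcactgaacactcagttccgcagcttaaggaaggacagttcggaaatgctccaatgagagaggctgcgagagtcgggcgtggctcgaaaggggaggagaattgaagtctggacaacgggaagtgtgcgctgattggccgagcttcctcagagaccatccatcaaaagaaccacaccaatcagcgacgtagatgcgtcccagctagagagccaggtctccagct

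In the first window of Cdkn1a (chr17:29090729-29091028, plus strand) matches to the half-site begin 73 and 51 bases before the start, with 12 bases between them. Only exact matches were searched. The bases directly after the second match, tgacatgttc, miss the motif at their first base only and were therefore left in lower case. The second window (chr17:29093519-29093818, plus strand) had no half-site, and held the GC box GGGCGG 104 and 46 bases before its start. In Mdm2 (chr10:117710709-117711008, minus strand) the half-site begins 186 bases before the start, and in Ccng1 (chr11:40755237-40755536, minus strand) 185 bases before it. Phlda3, Sesn2, Eda2r and Btg2 had no such match in their windows. Over all 32851 windows of the table, 8.36% held the half-site, 35.7% held GGGCGG and 13.6% held TATAAA. The sequence CTTTGAT, the core bound by the WNT effectors of the TCF family, was in 3.73% of all windows and in none of the 8. A match is a string of letters in a window and not a bound site.

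Cdkn1a was the member that varied most. Its level was 9.56, 11.08, 9.59, 10.95 and 10.86 in DKO libraries 1 to 5. It was 10.87, 10.93, 9.93, 9.76 and 9.63 in Math1-Cre libraries, and 9.72, 9.63, 9.87, 9.54 and 9.91 in no-Cre libraries. Each Cre-carrying group thus held both high and low libraries, whereas the no-Cre libraries lay close together. The group means were 10.41 ± 0.76 in DKO, 10.22 ± 0.63 in Math1-Cre and 9.73 ± 0.15 in no-Cre libraries (SD, n = 5 each). Over all 15 libraries DKO minus no-Cre was +0.67 ± 0.32 (SE; 95% interval -0.01 to 1.36), which did not pass the threshold (limma, Benjamini-Hochberg adjusted p = 0.292). DKO minus Math1-Cre was +0.19 ± 0.32 (adjusted p = 0.749, limma), and Math1-Cre minus no-Cre was +0.49 ± 0.32 (adjusted p = 1.00, limma).

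Split by the Gsk3a row, the same values fell apart. The 5 libraries with a low row had Cdkn1a at 10.86 to 11.08, and the 10 with a high row at 9.54 to 9.93. The lowest of the first stood 0.93 above the highest of the others, and the medians differed by 1.25, a 2.37-fold difference. All 5 low libraries carry Cre by label, in both Cre groups, and the 5 Cre-labelled libraries with a high row ranged over 9.56 to 9.93, beside 9.54 to 9.91 in the no-Cre libraries. Of all 22180 genes, 147 (0.663%) were higher in every low library and 187 (0.843%) lower, together 1.51%, and Cdkn1a ranked 39 by the difference in medians. Among the 9 members it was the only one whose libraries did not overlap. Of the 4 narrow arrays, 2 (DKO 4 and DKO 5) are low and 2 (DKO 3 and no-Cre 4) are high. These are descriptions, since the row is itself a readout of the same arrays.

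In the 11 libraries whose row goes with the label, Cdkn1a rose in DKO against both controls. It averaged 10.96 ± 0.11 in DKO (SD, n = 3), 9.77 ± 0.15 in Math1-Cre (n = 3) and 9.73 ± 0.15 in no-Cre libraries (n = 5). DKO minus no-Cre was +1.23 ± 0.11 (SE; 95% interval 1.00 to 1.46), 2.34-fold, with an adjusted p of 0.000164 (limma). DKO minus Math1-Cre was +1.19 ± 0.12 (0.93 to 1.45), 2.28-fold, with an adjusted p of 0.000668 (limma), and all 3 DKO libraries lay above every control in both. The 2 comparisons share the DKO libraries. Math1-Cre minus no-Cre was +0.04 ± 0.11 (adjusted p = 1.00, limma). Because the 4 libraries were set aside on a measured row after the data were known, these p-values do not stand apart from that choice.

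**Figure D1:**
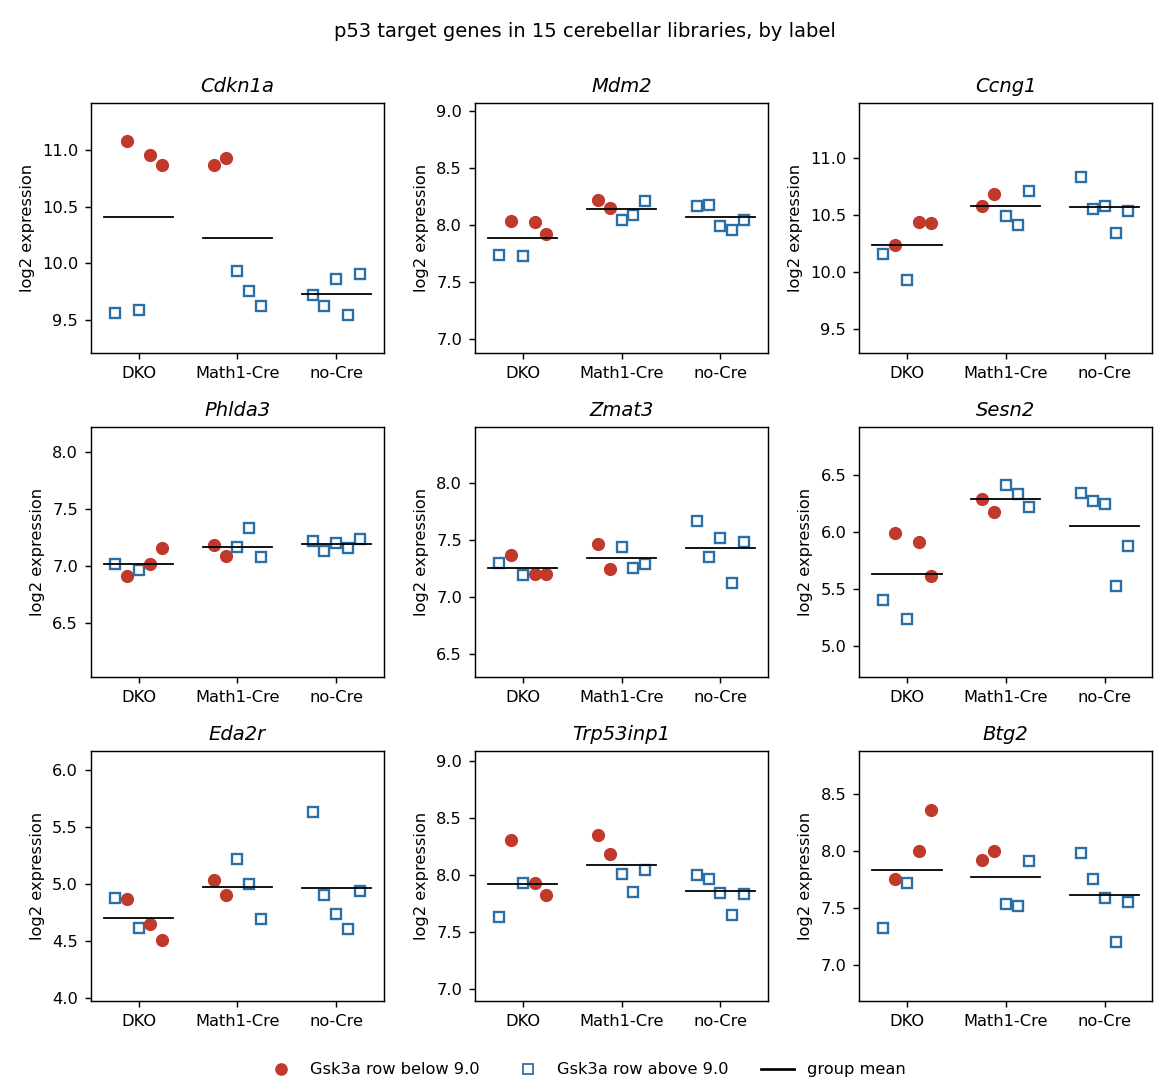
Log2 expression of the 9 measured p53 target genes (vertical axis, the same span in each panel) in every library, by label group. Filled red circles are the 5 libraries with a Gsk3a row below 9.0, open blue squares the other 10, and lines the group means. Cdkn1a separates the filled from the open points (10.86 to 11.08 against 9.54 to 9.93), while in the other 8 panels they overlap.

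The other arrest gene is Btg2, an antiproliferative BTG/TOB family member that slows the G1 to S step and marks neural progenitors about to differentiate. It read 7.32, 7.76, 7.72, 8.00 and 8.36 in DKO libraries, 7.92, 8.00, 7.53, 7.51 and 7.91 in Math1-Cre libraries, and 7.99, 7.75, 7.58, 7.20 and 7.55 in no-Cre libraries. The groups overlapped. Over 15 libraries DKO minus no-Cre was +0.22 ± 0.18 (adjusted p = 0.535, limma) and DKO minus Math1-Cre +0.06 ± 0.18 (adjusted p = 0.867, limma). Over 11 libraries the differences were +0.42 ± 0.18 (95% interval 0.03 to 0.81, adjusted p = 0.347, limma) and +0.39 ± 0.20 (adjusted p = 0.364, limma). Its medians were 8.00 in the low and 7.57 in the high libraries, and 3 of the 5 low libraries lay above every high one, so Btg2 ranked 350 by that difference. Without the 4 arrays of narrow spread the 15-library differences of Btg2 turned round, to -0.18 against no-Cre and -0.24 against Math1-Cre. That setting leaves only DKO 1 and DKO 2 in the DKO group, and takes out DKO 4 and DKO 5, where Btg2 was highest in that group. Array spread and the choice of libraries cannot be told apart there. Btg2 is also induced as an immediate early gene. The 11 other such genes summed to a linear level of 1211 to 1450 in the low and 863 to 1308 in the high libraries. That sum follows the genes of highest level, and Fos was near background (mean 3.19). Of the 11, 8 had the higher median in the low libraries and 3 the lower, with a list median of +0.01, beside -0.01 over all genes. The part of these genes in the Btg2 values was not tested.

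Of the feedback genes, neither passed the test. Mdm2, the ligase that degrades p53, read 7.74, 8.03, 7.72, 8.02 and 7.92 in DKO libraries, 8.22, 8.15, 8.05, 8.09 and 8.21 in Math1-Cre libraries, and 8.16, 8.18, 7.99, 7.96 and 8.05 in no-Cre libraries. Every DKO library lay below every Math1-Cre one, the lowest being DKO 1 and DKO 3, whose Gsk3a row was high. How many of all genes separate these groups was not counted, and 23% had an unadjusted p under 0.05 between them (limma). DKO minus Math1-Cre was -0.26 ± 0.08 over 15 libraries (adjusted p = 0.0959, limma), and DKO minus no-Cre -0.18 ± 0.08 (adjusted p = 0.254, limma). Over 11 libraries Mdm2 differed by -0.08 ± 0.08 from no-Cre (95% interval -0.26 to 0.11, adjusted p = 0.743, limma) and by -0.12 ± 0.09 from Math1-Cre (adjusted p = 0.517, limma); with each array centred on its median both became +0.02. The upper bound of 0.11 against no-Cre lies below the lower bound of 1.00 for Cdkn1a there. Both intervals come from the 11 libraries kept by the Gsk3a row, by which Cdkn1a was already seen to separate. Setting the bounds side by side is therefore a description and not a test. The Mdm2 medians of the low and high libraries differed by -0.01.

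Ccng1 encodes cyclin G1, a p53 target that feeds back on p53 and Mdm2. It read 10.16, 10.24, 9.93, 10.43 and 10.43 in DKO libraries, 10.58, 10.68, 10.49, 10.41 and 10.71 in Math1-Cre libraries, and 10.84, 10.55, 10.58, 10.34 and 10.53 in no-Cre libraries. The DKO values were the lower ones, with overlap through Math1-Cre 4 and no-Cre 4. DKO minus no-Cre was -0.33 ± 0.11 over 15 libraries (adjusted p = 0.156, limma) and -0.20 ± 0.11 over 11 (95% interval -0.45 to 0.05, adjusted p = 0.499, limma). Against Math1-Cre the DKO difference was -0.34 ± 0.11 over 15 libraries (adjusted p = 0.103, limma). Without no-Cre 4, a narrow array, the DKO minus no-Cre difference over 15 libraries became -0.38 and passed the threshold (adjusted p = 0.0459, limma). In that fit 1546 of all 22180 genes passed, in place of 16. In settings other than leaving out 1 library this Ccng1 difference ran over -0.42 to -0.22 and did not pass. The Ccng1 medians of the low and high libraries differed by -0.08.

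Sesn2 and Phlda3 restrain growth signalling. Sestrin 2, made from Sesn2, is a stress-induced inhibitor of mTORC1. Sesn2 read 5.40, 5.99, 5.24, 5.91 and 5.62 in DKO libraries, 6.29, 6.18, 6.41, 6.34 and 6.22 in Math1-Cre libraries, and 6.35, 6.27, 6.25, 5.52 and 5.87 in no-Cre libraries. All DKO values lay below all Math1-Cre values, while the no-Cre libraries split into 3 high and 2 low. As for Mdm2, the share of all genes that separate DKO from Math1-Cre libraries was not counted. DKO minus Math1-Cre was -0.66 ± 0.16 over 15 libraries (adjusted p = 0.0686, limma) and -0.48 ± 0.19 over 11 (adjusted p = 0.273, limma). DKO minus no-Cre was -0.42 ± 0.16 over 15 libraries (adjusted p = 0.205, limma) and -0.21 ± 0.17 over 11 (adjusted p = 0.642, limma), and Math1-Cre minus no-Cre was +0.24 ± 0.16 (adjusted p = 1.00, limma). Leaving out no-Cre 4 put Sesn2 past the threshold against both controls over 15 libraries. It was at -0.55 against no-Cre (adjusted p = 0.0373, limma) and, with the same -0.66, against Math1-Cre (adjusted p = 0.0207, limma). Weighting the arrays did so against Math1-Cre (-0.63, adjusted p = 0.0344, limma). Of all 22180 genes, 1546 and 1288 passed without no-Cre 4, in place of 16 and 122. With the weights 773 passed against Math1-Cre. In settings other than leaving out 1 library, Sesn2 ran over -0.49 to -0.27 against no-Cre and -0.66 to -0.44 against Math1-Cre. In both DKO comparisons the differences of Sesn2 were below 0 and those of Cdkn1a above it, and in Math1-Cre minus no-Cre both were above 0. Its 2 lowest libraries, DKO 1 and DKO 3, had a high Gsk3a row.

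Phlda3 encodes a pleckstrin homology protein that keeps Akt from the membrane. It ranged over 6.91 to 7.16 in DKO, 7.07 to 7.33 in Math1-Cre and 7.13 to 7.23 in no-Cre libraries, the smallest spread of the set (SD 0.11 over all 15). DKO minus no-Cre was -0.17 ± 0.07 over 15 libraries (adjusted p = 0.203, limma) and -0.16 ± 0.09 over 11 (adjusted p = 0.466, limma). Against Math1-Cre the DKO difference was -0.15 ± 0.07 over 15 libraries (adjusted p = 0.184, limma). In settings other than leaving out 1 library this ran over -0.20 to -0.0094.

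The remaining members have roles in RNA binding, death signalling and autophagy. Zmat3, an RNA-binding zinc finger protein, ranged over 7.19 to 7.37 in DKO, 7.24 to 7.46 in Math1-Cre and 7.12 to 7.67 in no-Cre libraries. Its DKO minus no-Cre difference was -0.18 ± 0.09 over 15 libraries (adjusted p = 0.327, limma) and -0.17 ± 0.12 over 11 (adjusted p = 0.568, limma). Zmat3 in DKO minus Math1-Cre was -0.09 ± 0.09 (adjusted p = 0.580, limma), and this turned to +0.05 after quantile normalization and after median centring. Eda2r, a receptor of the TNF receptor family for ectodysplasin A2, ranged over 4.51 to 4.88 in DKO, 4.69 to 5.22 in Math1-Cre and 4.61 to 5.63 in no-Cre libraries. This is low on these arrays, where the medians of olfactory and vomeronasal receptor genes, not used by this tissue, were 3.50 to 4.11, and differences there can be compressed. Eda2r in DKO minus no-Cre was -0.26 ± 0.16 over 15 libraries (adjusted p = 0.398, limma) and -0.29 ± 0.20 over 11 (adjusted p = 0.584, limma), and DKO minus Math1-Cre was -0.27 ± 0.16 (adjusted p = 0.307, limma).

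Trp53inp1 encodes a stress-induced nuclear protein that promotes p53 activity and takes part in autophagy. It read 7.63, 8.31, 7.93, 7.93 and 7.82 in DKO libraries, 8.35, 8.19, 8.01, 7.85 and 8.05 in Math1-Cre libraries, and 8.00, 7.96, 7.85, 7.65 and 7.83 in no-Cre libraries. The highest 3 were DKO 2, Math1-Cre 1 and Math1-Cre 2, all with a low Gsk3a row, but DKO 4 and DKO 5 lay among the rest. Its medians were 8.19 in the low and 7.89 in the high libraries, rank 726 by that difference. DKO minus no-Cre was +0.07 ± 0.12 over 15 libraries (adjusted p = 0.797, limma) and +0.16 ± 0.12 over 11 (95% interval -0.10 to 0.43, adjusted p = 0.596, limma). Against Math1-Cre the DKO difference was -0.16 ± 0.12 (adjusted p = 0.416, limma), and Math1-Cre minus no-Cre +0.23 ± 0.12 (adjusted p = 1.00, limma). Without the 4 narrow arrays, which take DKO 4 and DKO 5 out, the low and high libraries of Trp53inp1 no longer overlapped.

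**Figure D2:**
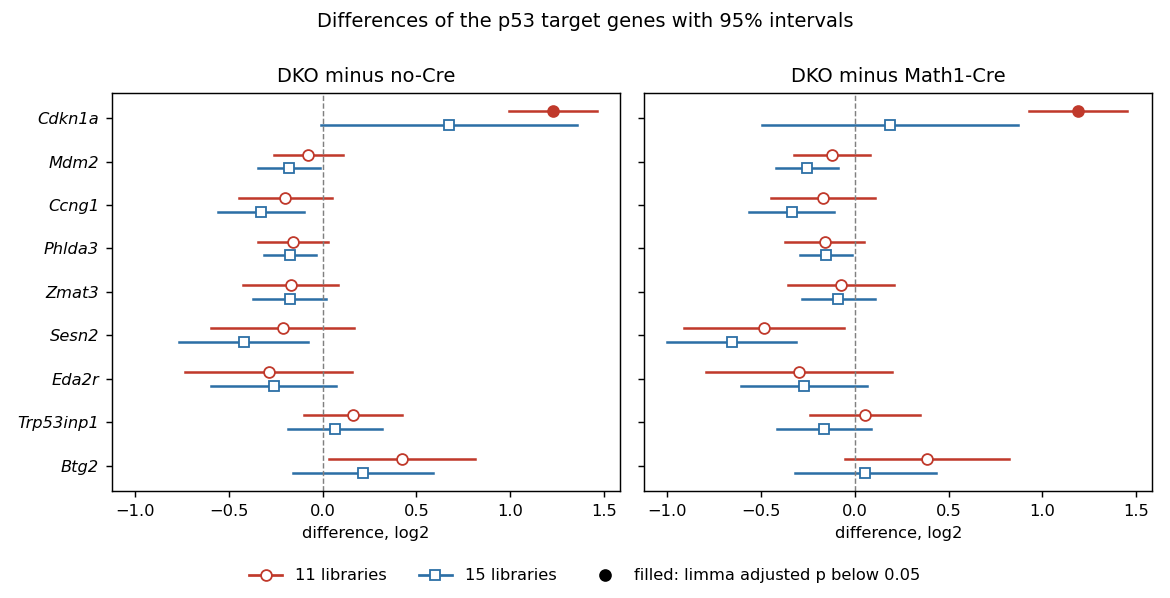
Differences of each p53 target gene in log2 units (horizontal axis) for DKO minus no-Cre and DKO minus Math1-Cre, with 95% intervals of the limma fit, over 11 libraries (red circles) and over 15 (blue squares). Filled symbols passed the adjusted threshold of 0.05: Cdkn1a over 11 libraries in both comparisons (+1.23 and +1.19), and no other member.

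Counted as a set, 0 of the 9 members passed the limma threshold (adjusted p under 0.05) in DKO minus no-Cre over 15 libraries, where 0.0721% of all genes did (0.018% higher and 0.0541% lower in DKO). In DKO minus Math1-Cre it was 0 of 9, against 0.55% of all genes (0.131% higher, 0.419% lower), and in Math1-Cre minus no-Cre 0 of 9, against 0%. At an unadjusted p under 0.05 the limma counts were 4 of 9 (17.4% of all genes), 4 of 9 (23%) and 0 of 9 (3.23%). The members' median difference was -0.18 for DKO minus no-Cre, -0.16 for DKO minus Math1-Cre and +0.08 for Math1-Cre minus no-Cre, beside -0.02, -0.05 and +0.02 over all genes. Over 11 libraries 1 of 9, Cdkn1a, passed in DKO minus no-Cre, where 1.08% of all genes did (0.437% higher, 0.64% lower). In DKO minus Math1-Cre it was again 1 of 9, where 0.541% of all genes passed (0.289% higher, 0.252% lower), and in Math1-Cre minus no-Cre 0 of 9 (0%). The unadjusted limma counts there were 2 of 9 (12.7% of all genes), 2 of 9 (15.9%) and 0 of 9 (2.2%). The medians there were -0.16 and -0.12 against the controls, beside -0.02 and -0.06 over all genes. By the Gsk3a row, 2 of the other 8 members had the higher median in the low libraries and 6 the lower, between -0.24 for Sesn2 and +0.43 for Btg2.

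A wider list of p53 targets gave a similar count. It holds 36 genes, of which 32 were measured, such as the death receptor gene Fas, the nuclease gene Aen and the phosphatase gene Ppm1d. Over 15 libraries 0 of 32 passed in DKO minus no-Cre, with a median difference of -0.11 and 8 of 32 at an unadjusted p under 0.05 in limma (17.4% of all genes). In DKO minus Math1-Cre 1 of 32 fell, Rps27l, a ribosomal protein paralog induced by p53, with a list median of -0.17 and 13 of 32 at an unadjusted p under 0.05 in limma (23% of all genes). Rps27l read 6.13, 6.20, 5.83, 6.30 and 6.23 in DKO libraries, 6.64, 6.58, 6.67, 6.63 and 6.63 in Math1-Cre libraries, and 6.73, 6.48, 6.37, 6.11 and 6.58 in no-Cre libraries. Its difference of -0.50 ± 0.11 (DKO minus Math1-Cre, adjusted p = 0.0497, limma) was just past the threshold and was lost in 18 of 26 other settings. Over 11 libraries 0 of 32 passed against either control (at an unadjusted p under 0.05 in limma, 6 of 32 against no-Cre, beside 12.7% of all genes, and 8 of 32 against Math1-Cre, beside 15.9%), with differences between -0.35 and +0.30 in DKO minus no-Cre. By the Gsk3a row 0 of the 32 separated the libraries, 12 had a higher and 20 a lower median in the low libraries, and the list median was -0.03, beside -0.01 over all genes. The largest difference in medians was +0.58 for Ddit4, also listed as an ATF4 target, with 3 of the 5 low libraries above every high one. Plk3 followed at +0.33, with 4 of the 5 low libraries above every high one. At the other end Pidd1 differed by -0.30, with 0 of the 5 low libraries below every high one.

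Regulators and relatives of p53, such as Mdm4, Atm, Cdkn2a, Trp63 and Trp73, were measured for all 14 listed genes. In each comparison 0 of 14 passed, where 0% to 1.08% of all genes did. At an unadjusted p under 0.05 in limma there were 3 of 14 in DKO minus no-Cre over 15 libraries (17.4% of all genes). In DKO minus Math1-Cre there were 2 of 14 (23%), and in Math1-Cre minus no-Cre 0 of 14 (3.23%). Over 11 libraries the counts were 3 (12.7%), 3 (15.9%) and 0 (2.2%) in the same order. By the Gsk3a row 13 of 14 had the lower median in the low libraries, and Chek2, the checkpoint kinase that phosphorylates p53 after DNA breaks, was below in all 5 (0.843% of all genes were). Chek2 read 6.51, 5.94, 6.09, 5.89 and 5.98 in DKO libraries, 5.98, 6.02, 6.73, 6.23 and 6.58 in Math1-Cre libraries, and 6.26, 6.51, 6.26, 6.20 and 6.52 in no-Cre libraries. The gap between the highest low and the lowest high library was only 0.07 in size, and the medians differed by -0.41.

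p21 acts in part through the DREAM complex, which represses genes of the G2 and M phases. Of 12 such genes 11 were measured. Over 15 libraries 0 of 11 passed in any comparison. At an unadjusted p under 0.05 in limma there were 8 of 11 in DKO minus no-Cre (17.4% of all genes), with a list median of -0.47, and 2 of 11 in DKO minus Math1-Cre (23% of all genes), with a list median of -0.16. Math1-Cre minus no-Cre held 3 of 11 (3.23% of all genes), with all 11 differences below 0 and a list median of -0.30. Over 11 libraries 5 of 11 fell in DKO minus no-Cre (0.64% of all genes fell): the kinase genes Aurka and Bub1, the cyclin A2 gene Ccna2, and the transcription factor genes Foxm1 and Mybl2. All 11 differences were below 0, with a median of -0.60. In Math1-Cre minus no-Cre over 11 libraries 9 of 11 were below 0, with a median of -0.08.

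Foxm1 had the lowest adjusted p of these, with a difference of -0.53 ± 0.09 (adjusted p = 0.0129, limma). Bub1 differed by -0.79 ± 0.13 (adjusted p = 0.0144, limma) and Mybl2 by -0.73 ± 0.13 (adjusted p = 0.0249, limma). Ccna2 differed by -0.53 ± 0.10 (adjusted p = 0.0305, limma) and Aurka by -0.78 ± 0.16 (adjusted p = 0.0437, limma). In DKO minus Math1-Cre 1 of 11 fell (0.252% of all genes fell), Mybl2, at -0.80 ± 0.15 (adjusted p = 0.0386, limma), with a list median of -0.51. Mybl2 has a further row, and with the mean of its rows its DKO minus no-Cre difference was -0.34 and no longer passed (adjusted p = 0.259, limma). Across 22 other settings the calls against no-Cre were lost in 4 for Bub1, 6 for Foxm1, 9 each for Ccna2 and Mybl2 and 13 for Aurka, and the Mybl2 call against Math1-Cre was lost in 15. The settings include the fit without the narrow arrays, in which DKO 2 is the only DKO library.

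By the Gsk3a row 3 of these 11 genes separated the libraries, all lower in the low ones (0.843% of all genes did so), and all 11 had the lower median there. Mybl2 read 5.69, 5.57 and 6.04 in the low DKO libraries and 6.01 and 5.52 in the low Math1-Cre ones, against 6.30 to 6.83 in the high libraries. Ccna2 lay at 9.18 to 9.40 in the low and 9.55 to 9.97 in the high libraries, and Foxm1 at 7.17 to 7.32 in the low and 7.45 to 7.93 in the high libraries. The progenitor marker Atoh1 was also lower, but its low and high libraries overlapped. In DKO minus no-Cre it fell by 0.80 ± 0.17 over 11 libraries (adjusted p = 0.0495, limma, lost in 14 of 22 other settings). Over 15 it differed by -0.71 ± 0.20 (adjusted p = 0.116, limma). Against Math1-Cre over 11 libraries it differed by -0.65 (adjusted p = 0.165, limma). Of the 4 progenitor markers over 11 libraries, 3 were below 0 and 1 above in DKO minus no-Cre, and 2 below and 2 above in DKO minus Math1-Cre. The 4 progenitor markers summed to 3615 to 4045 in the low and 3776 to 4681 in the high libraries. Their part in the cell cycle values was not tested.

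A pair of stress lists were also set beside the members. Of 9 targets of ATF4, the factor of the integrated stress response that also acts on Sesn2, 0 passed in any comparison, where 0% to 1.08% of all genes did. At an unadjusted p under 0.05 in limma there were 0 to 3, beside 2.2% to 23% of all genes by comparison. Atf3 alone separated the libraries by the Gsk3a row, as 0.663% of all genes did in that direction. Atf3 lay at 4.26 to 4.75 in the low and 3.65 to 4.24 in the high libraries, close to background and with a gap of 0.02. Of the 11 immediate early genes 0 passed in any comparison (0 to 3 at an unadjusted p under 0.05 in limma, beside the same shares of all genes). By the Gsk3a row 0 of them separated the libraries (1.51% of all genes did).

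**Figure D3:**
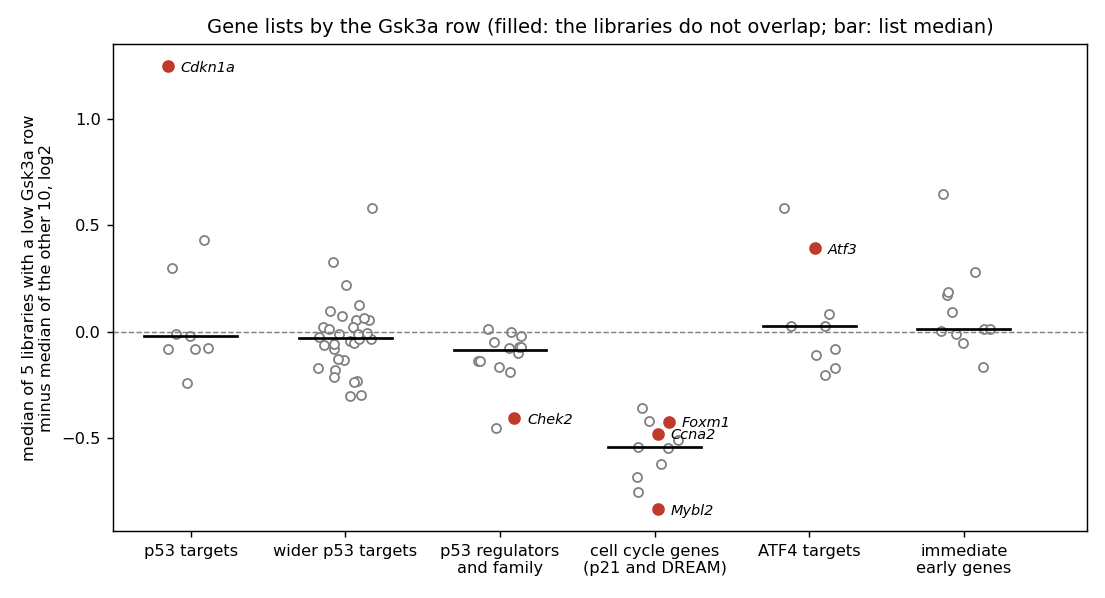
Each point is a gene, placed by the median of the 5 libraries with a low Gsk3a row minus the median of the other 10 (vertical axis, log2), for the p53 targets, the wider p53 targets, p53 regulators, cell cycle genes, ATF4 targets and immediate early genes. Filled points are genes whose low and high libraries do not overlap, and bars are list medians: Cdkn1a stands at +1.25, the wider targets centre on -0.03, and the cell cycle genes lie below 0 with a median of -0.54.

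Among p53 targets of the BCL2 family, Pmaip1, which encodes the death activator Noxa, split the libraries as Cdkn1a did, at 6.39 to 7.63 in the low and 3.48 to 4.38 in the high libraries, and in DKO minus no-Cre it rose by 3.16 ± 0.24 over 11 libraries (adjusted p = 4.21e-05, limma) but did not pass over 15 (+1.78 ± 0.85, adjusted p = 0.293, limma). The Pmaip1 values of the high libraries are near background, in the range of the receptor gene medians (3.50 to 4.11), so the size of its difference is uncertain. Bbc3, which encodes the related activator Puma, lay at 3.80 to 4.17 in the low and 3.79 to 4.50 in the high libraries, near background; Bax was not analysed here.

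Among genes with an SD of at least 0.3, the 8 whose profile over the 15 libraries was most like that of Cdkn1a were not p53 targets of the lists. Most listed p53 targets fell short of that SD and could not be ranked, so their absence from the 8 says nothing about them. Likeness was measured as the root mean square difference between profiles after each gene's mean was subtracted, over 2580 genes with an SD of at least 0.3, whose median was 0.688. The 8 nearest were Axin2 at 0.158, Trmt9b at 0.169, Dock5 at 0.172, Gna14 at 0.199, Dlx3 at 0.200, Uap1l1 at 0.205, Lrrc55 at 0.214 and Mst1r at 0.228. Of the members, Btg2 was nearest at 0.466, then Trp53inp1 at 0.491, Mdm2 at 0.574, Ccng1 at 0.609, Zmat3 at 0.620, Phlda3 at 0.628, Sesn2 at 0.656 and Eda2r at 0.683. Sesn2 alone of these has an SD past 0.3 and ranked 936. Pmaip1, with a larger range, was at 1.03 and ranked 2538, although it split the libraries as Cdkn1a did. The measure follows the size of a change as well as its order, and the profiles share libraries.

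**Figure D4:**
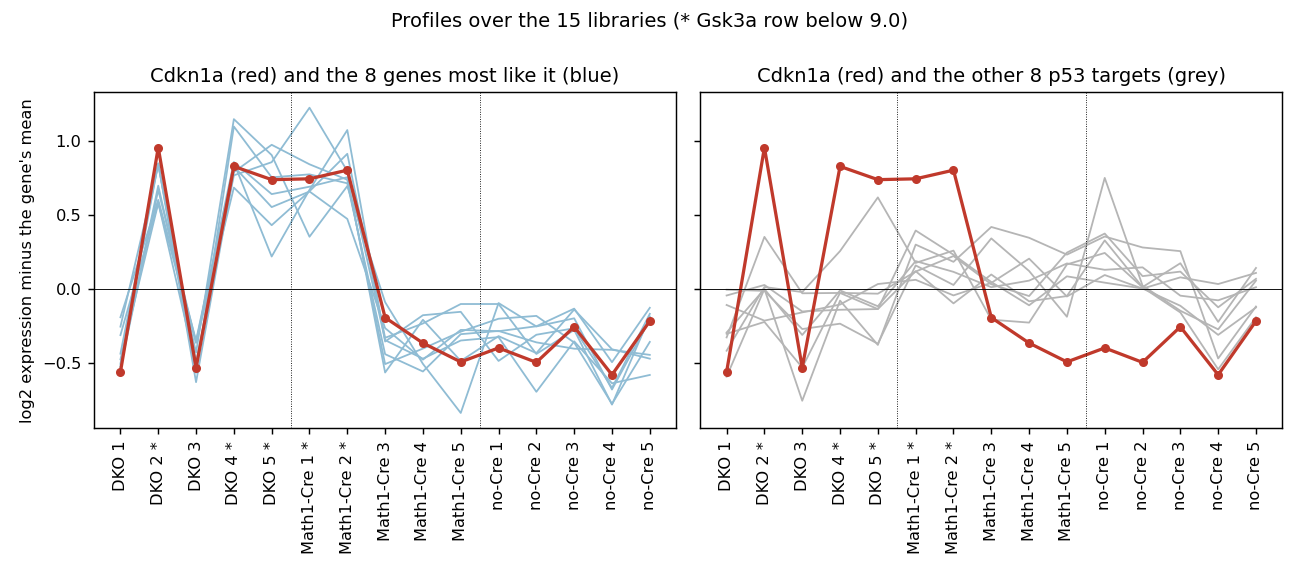
Log2 expression minus the gene's own mean (vertical axis) in the 15 libraries (horizontal axis, asterisks mark a Gsk3a row below 9.0). Cdkn1a is red in both panels, with the 8 genes most like it (of those with an SD of at least 0.3) in blue at left and the other 8 p53 targets in grey at right. The blue lines lie above 0 in the 5 starred libraries, as the red one does, and the grey lines do not separate them.

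Markers of other cell types overlapped between the low and high libraries as summed linear levels. Purkinje markers summed to 4637 to 5828 in the low and 4344 to 5752 in the high libraries, and astrocyte and Bergmann glia markers to 2742 to 3050 in the low and 2424 to 3236 in the high ones. Endothelial markers summed to 919 to 1430 in the low and 966 to 1723 in the high libraries, and all 4 had the lower median in the low ones (list median -0.24). In DKO all 4 endothelial markers were also below both controls over 15 and over 11 libraries, with list medians of -0.33 and -0.27 against no-Cre and -0.22 and -0.35 against Math1-Cre. Of these 0 of 4 passed the limma threshold (1 or 2 of 4 at an unadjusted p under 0.05, beside 12.7% to 23% of all genes). The 4 microglial markers summed to 148 to 227 in the low and 139 to 272 in the high libraries, with 2 of 4 medians lower in the low ones, and 6 Hox genes of the brainstem and spinal cord to 67.4 to 139 in the low and 62.8 to 247 in the high ones. Over 11 libraries all 4 microglial markers were below 0 in DKO minus no-Cre and in DKO minus Math1-Cre (list medians -0.26 and -0.26). Of these 0 of 4 were past the limma threshold (0 and 1 of 4 at an unadjusted p under 0.05, beside 12.7% and 15.9% of all genes). Oligodendrocyte markers summed to 883 to 1145 in the low and 863 to 1253 in the high libraries, and meningeal markers to 1378 to 2132 in the low and 1073 to 2239 in the high ones. Their part in the Cdkn1a values was not tested beyond this.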

How the data were processed

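RNA of 15 libraries was measured on Affymetrix Mouse Gene 2.1 ST arrays, grouped and numbered as the labels have them. The deposited values are log2 expression, 1 per array row, which the authors made with RMA and Partek 6.6 on build mm9, per the submitters' processing notes; how these steps were run is not stated there. They ran from 2.11 to 13.49 and were used as deposited. Differences near background can be compressed, and precision is limited by how many arrays there are. Of 41345 rows, 23521 had 1 symbol in the platform annotation, which left 22180 genes, and 1082 of them had more than 1 row.

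All genes entered limma fits with 1 mean for each group, over 15 libraries and over 11, with eBayes moderation, two-sided p-values and Benjamini-Hochberg adjustment over all genes (threshold 0.05). The fit was tested on simulated data. Since no litter or day is named, the p-values reflect only how far these samples spread. The split by the Gsk3a row was only described. Genes were named by a rule: the members, the label checks and the BCL2 family targets always, up to 4 called or non-overlapping genes of each list, and the 8 genes most like Cdkn1a. Beyond that rule, every called cell cycle gene was named. Ddit4, Plk3 and Pidd1 were named for their large differences in medians by the Gsk3a row, although their libraries overlapped. Members, lists and rules were chosen with earlier results of these data known. Promoters and coordinates are those of RefSeq on GRCm38.p6, and those of Zmat3 and Trp53inp1 were not used. Software was limma 3.58.1 in R 4.3.3, and matplotlib 3.10.9 in Python 3.11.15. The other settings were leaving out genes under the 30th percentile of level, quantile normalization, median centring, a trended and robust prior, fits of 2 groups alone, array weights, the replicate block, the code shared by the replicate 5 descriptions as a block, array spread as a covariate, leaving out the 4 narrowest arrays, the mean of a gene's rows, and leaving out each library. Without the narrowest arrays the DKO group holds DKO 1 and DKO 2, and over the 11 libraries DKO 2 alone.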

Additional observations from a re-analysis of the deposited data

Results flagged for a closer look

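Each group of 5 libraries was checked for a sample far from the others in the members, Pmaip1, Bbc3, Gsk3b, Atoh1 and the Gsk3a row. Of 42 groups, 2 were flagged, and chance flags about 5% of groups. Bbc3 was 4.50 in no-Cre 3, where the other no-Cre libraries lay between 4.11 and 4.21, all near background. Atoh1 was 7.81 in DKO 2, where the other DKO libraries lay between 8.54 and 8.65; DKO 2 also had the highest Cdkn1a level of the 15 libraries, 11.08.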

How the results depend on the processing

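Over 11 libraries the count of members called stayed at 1 against no-Cre, 1 against Math1-Cre and 0 in Math1-Cre minus no-Cre in each other setting run, including those that leave out a library. Cdkn1a in DKO minus no-Cre ran over 1.17 to 1.28 (limma adjusted p 0.000262 to 0.0020) when a library was left out and 1.17 to 1.34 otherwise. In DKO minus Math1-Cre it ran over 1.12 to 1.27 (0.000597 to 0.00620) and 1.13 to 1.35. Same-numbered libraries deviated from their group means with correlations of -0.30 to 0.30, so the numbers were not taken to pair the samples; with the replicate number as a block Cdkn1a was +1.28 against no-Cre (limma adjusted p = 0.00799) and +1.25 against Math1-Cre (limma adjusted p = 0.0233), and the counts of members called were unchanged in every comparison.

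Over 15 libraries 0 to 2 members were called in DKO minus no-Cre and 0 to 1 in DKO minus Math1-Cre when a library was left out. The higher counts were Ccng1 and Sesn2, and Sesn2, without no-Cre 4, where 1546 and 1288 of all 22180 genes were called. Array weights gave 1 in DKO minus Math1-Cre, where 773 of all genes were called. Cdkn1a over 15 libraries ran over 0.507 (without DKO 2) to 0.886 (without DKO 1) in DKO minus no-Cre, 0.0193 (without DKO 2) to 0.398 (without DKO 1) in DKO minus Math1-Cre and 0.312 (without Math1-Cre 2) to 0.636 (without Math1-Cre 5) in Math1-Cre minus no-Cre, and was not called in any of these. Without the 4 narrowest arrays 2 members separated by the Gsk3a row, Cdkn1a and Trp53inp1, in place of 1. None of the members in Math1-Cre minus no-Cre was called in any setting. Some differences of DKO minus Math1-Cre over 15 libraries shrank in settings other than leaving out 1 library. They ran over -0.26 to -0.12 for Mdm2, -0.38 to -0.20 for Ccng1, -0.20 to -0.0094 for Phlda3 and -0.29 to -0.07 for Eda2r.

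Differences turned sign in a few places, none of them a called one. Btg2 became -0.18 in DKO minus no-Cre and -0.24 in DKO minus Math1-Cre without the 4 narrowest arrays, with only DKO 1 and DKO 2 left in the DKO group. It ran over -0.0755 to 0.183 in DKO minus Math1-Cre when a library was left out. Zmat3 in DKO minus Math1-Cre became +0.0503 by quantile normalization, +0.0507 by median centring and +0.0625 with array spread as a covariate. Mdm2 over 11 libraries became +0.0222 against no-Cre and +0.0200 against Math1-Cre by median centring. Trp53inp1 in DKO minus no-Cre ran over -0.0292 to 0.141 when a library was left out, the lowest without DKO 2. Cdkn1a in Math1-Cre minus no-Cre over 11 libraries became -0.00620 by median centring, -0.0130 with array spread as a covariate and -0.00889 without the narrowest arrays, and ran over -0.0398 to 0.110 when a library was left out. The cause was not tested.

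Calls of other genes were lost in some settings. When 1 library was left out at a time, they went as follows. The Bub1 call was lost without DKO 2 or DKO 4, and that of Foxm1 without DKO 4 or DKO 5. Those of Ccna2 and Mybl2 against no-Cre were lost when DKO 2 or DKO 4 was left out, and likewise for replicates 1, 2 and 5 of no-Cre. Aurka and Atoh1 kept theirs only without DKO 5 or no-Cre 4, and Rps27l only without DKO 5 or no-Cre 4. Mybl2 against Math1-Cre kept its call only without DKO 5, Math1-Cre 3 or no-Cre 4. None of these calls was made with the replicate block. Over the 11 settings that keep every library, or leave out only the narrow arrays, Aurka kept its call in 7, Atoh1 in 6, Rps27l in 6 and Mybl2 against Math1-Cre in 4. Counts over all genes moved widely: 16 genes in DKO minus no-Cre over 15 libraries became 1546 without no-Cre 4 and 0 by quantile normalization, and 122 in DKO minus Math1-Cre became 1288 without no-Cre 4 and 0 with the replicate block. Over 11 libraries 239 became 42 with the block and 2173 with array weights, and 120 became 25 and 1999. By median centring the split of higher and lower calls became 146 and 83 against no-Cre, in place of 97 and 142, and 111 and 28 against Math1-Cre, in place of 64 and 56; over 15 libraries it became 20 and 3 against Math1-Cre, in place of 29 and 93. Quantile normalization gave 136 and 119 against no-Cre and 103 and 42 against Math1-Cre over 11 libraries, and 11 and 9 against Math1-Cre over 15. Levels near background, as for Eda2r, Bbc3, Atf3 and the high libraries of Pmaip1, limit what the arrays can show.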
